A study of Vitis vinifera with 18 samples.

Results

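Ripe grape berries from Molise carried a set of 101 transcript clusters whose levels stood apart from those at both other sites in each of the varieties grown there. Of these clusters, 43 were higher and 58 lower at Molise than at Sicily and at Campania, among 97442 transcript clusters in all. The members were chosen from the measured levels. A cluster had to hold at least 20 counts in each of 17 libraries, which 13971 clusters did. Its mean log2 level at Molise then had to differ from the mean at each other site by at least 0.6 in the same direction, and by more than the Sicily and Campania means differed from each other, in both varieties. The Molise differences of the members are therefore a description of what was selected, with no test. A cluster without reads at some site could not enter, however far apart its levels lay.

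The berries came from the red grapevine (Vitis vinifera) varieties Aglianico, which is native to southern Italy, and Cabernet Sauvignon, which is grown worldwide, both of them bush-trained in open fields at Campania, Molise and Sicily. Every variety had 3 biological replicates at every site, 6 groups in all, and each replicate was a pool of 10 fully ripe berries ground whole after the seeds were taken out. Polyadenylated RNA was sequenced, and the 18 libraries held 22637307 to 31859647 expected counts. The labels describe the sites by name alone, so whatever set the Molise vineyard apart (weather, soil, handling or day of picking) cannot be told apart here. By its design, the study asked what a change of growing site does to the berry transcriptome of each genotype.

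Berry ripening in grape begins with softening and colour change and proceeds with the import of sugar, the loss of acid and, in red varieties, the build-up of anthocyanins in the skin, under the influence of abscisic acid. Light, temperature and water supply are known to alter pigment, stilbene and stress-related transcripts in ripening berries. A transcript cluster is a group of assembled sequences treated as 1 gene. No gene name accompanies a cluster's number, and 0 of the numbers were found in the RefSeq gene table, so no function is given to any member, and the berry tissue could not be checked against marker genes. In whole berries, a change in the number of cells of a type and a change in RNA per cell cannot be told apart.

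Several libraries stood apart before any site was compared. The library labelled Aglianico Campania replicate 3 had a mean correlation of log2 levels over the 13971 clusters of 0.982 with the Cabernet Sauvignon Campania libraries and of 0.908 with the other Aglianico Campania libraries. The choice of members did not use it, which left Aglianico Campania with 2 libraries. At least 10 counts were found for 45079 clusters in Cabernet Sauvignon Sicily replicate 2 and for 29212 in the library of that group without a legible number, whereas the remaining libraries had 19155 to 25443. The counts of members chosen and of members called are given below with and without them.

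**Figure D1:**
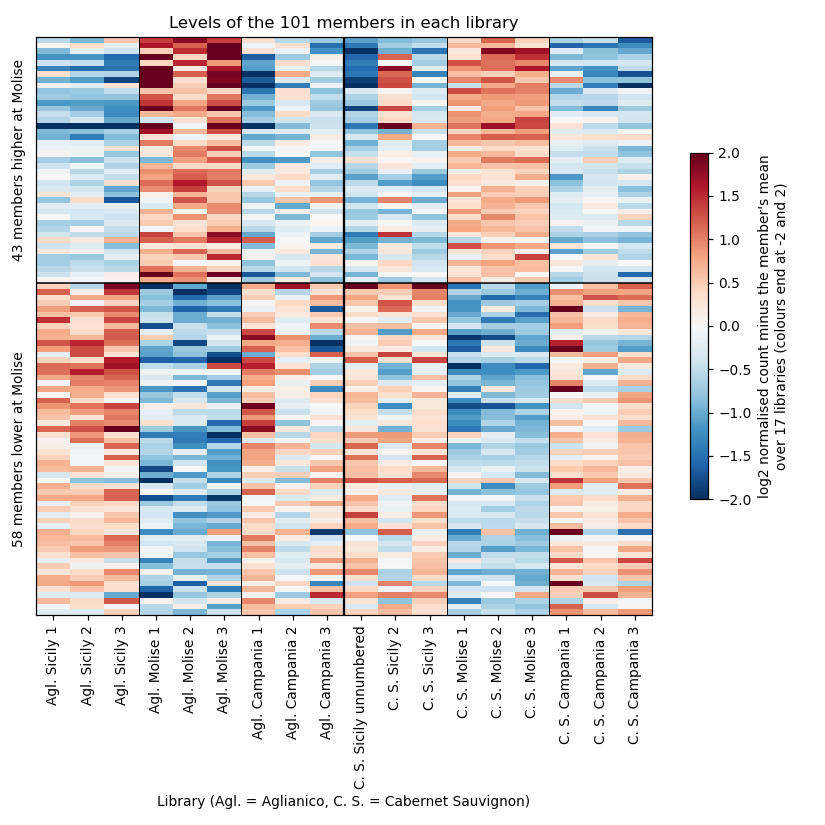
Each row is 1 of the 101 members and each column 1 of the 18 libraries. Colour gives the log2 normalised count minus the member's mean over the 17 libraries used in the choice. The columns of Molise libraries are mostly red in the block of 43 members higher there and mostly blue in the block of 58 members lower there, in both varieties.

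Levels are given as normalised counts, which are expected counts divided by a size factor per library (the median ratio to the mean profile of the kept clusters). Among the clusters higher at Molise, Cluster-27903.21392 had the largest difference that held in both varieties. In Aglianico it had 468, 634 and 462 normalised counts at Molise, 124, 96.3 and 260.0 at Sicily, and 225 and 121 at Campania. In Cabernet Sauvignon it had 238, 404 and 248 at Molise, 85.9, 99.1 and 107 at Sicily, and 116, 130.0 and 57.0 at Campania. Every Molise library of a variety lay above every library of that variety from elsewhere. The Molise level was 3.33-fold the mean of the other sites in Aglianico (log2 difference 1.73) and 3.00-fold in Cabernet Sauvignon (1.58), beside a pooled within-group SD of 0.51 on the log2 scale.

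Cluster-27903.40624 came next. Aglianico had 1865, 1382 and 2536 normalised counts of it at Molise, 626, 784 and 526 at Sicily, and 572 and 751 at Campania. Cabernet Sauvignon had 957, 968 and 750.0 at Molise, 229, 375 and 434 at Sicily, and 203, 219 and 256 at Campania. The Molise libraries were again the highest within each variety, while the Molise levels of Cabernet Sauvignon were close to the highest Aglianico levels from the other sites. The log2 difference was 1.53 in Aglianico and 1.69 in Cabernet Sauvignon, with a pooled SD of 0.34. Without these doubted Cabernet Sauvignon Sicily libraries (the unnumbered one and replicate 2), its smaller difference from another site was 1.02 in place of 1.41.

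Among the clusters lower at Molise, Cluster-27903.36470 had the largest difference that held in both varieties, and it also varied widely between replicates. Aglianico had 61.4, 401 and 47.3 normalised counts at Molise, 1125, 554 and 3054 at Sicily, and 1369 and 2664 at Campania. Cabernet Sauvignon had 294, 556 and 378 at Molise, 6325, 1535 and 4076 at Sicily, and 753, 1251 and 1873 at Campania. All Molise libraries lay below all others of their variety. The log2 difference was -3.87 in Aglianico and -2.36 in Cabernet Sauvignon, against a pooled SD of 1.07.

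Cluster-27903.30187 was lower at Molise with less scatter. Aglianico had 993, 385 and 465 normalised counts at Molise, 3779, 1766 and 4401 at Sicily, and 2094 and 1091 at Campania. Cabernet Sauvignon had 1079, 982 and 837 at Molise, 2367, 2322 and 3233 at Sicily, and 3095, 2875 and 2831 at Campania. The Molise libraries were the lowest in each variety, although Aglianico Campania replicate 2 came within reach of the highest Aglianico Molise library. The log2 differences were -1.94 in Aglianico and -1.53 in Cabernet Sauvignon, and the pooled SD was 0.50. These 4 clusters were named by a fixed rule, the 2 largest each way by the smaller of the differences in the varieties.

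**Figure D2:**
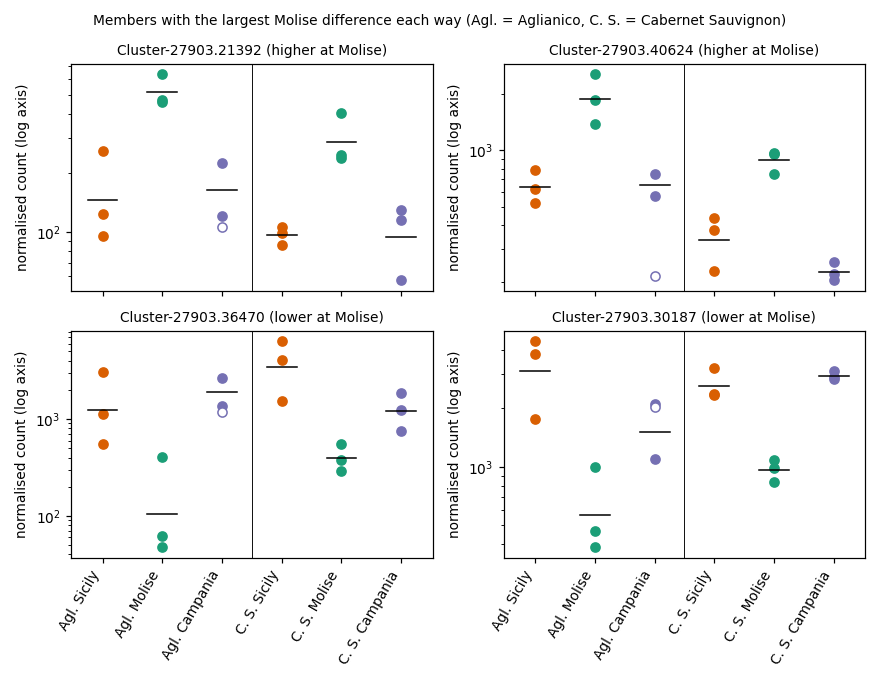
Normalised counts (log axis) of the 4 named clusters in every library, by variety and site; bars are geometric means, and the open circle is the library labelled Aglianico Campania replicate 3, which the choice did not use. The Molise points of a variety lie above (upper panels) or below (lower panels) the filled points of the other sites in that variety.

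Most members differed less than these. The median log2 difference between Molise and the mean of the other sites was 1.17 in Aglianico and 0.96 in Cabernet Sauvignon for the 43 higher clusters, which corresponds to 2.25-fold and 1.95-fold. For the 58 lower clusters it was -1.06 and -0.98. Over all 13971 clusters both medians lay within 0.01 of 0. The higher clusters ranged from 0.68 to 4.09 in Aglianico and from 0.67 to 2.37 in Cabernet Sauvignon. The lower clusters ranged from -3.87 to -0.62 and from -2.36 to -0.70. Only 11 higher and 5 lower clusters differed from each other site by 1 log2 unit or more in both varieties.

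The Molise difference was larger in size in Aglianico for 26 of the 43 higher and 36 of the 58 lower clusters, beside 6730 of 13971 kept clusters. The median size of the gap between the varieties' log2 differences was 0.27 in either direction, beside 0.31 over all kept clusters. The largest Aglianico differences among the higher clusters, up to 4.09, had no counterpart of that size in Cabernet Sauvignon. They varied widely between replicates. The 4.09 was that of Cluster-27903.22882, with 3842, 216 and 2558 normalised counts in Aglianico Molise replicates 1, 2 and 3. Aglianico Sicily had 164, 133 and 191 of it, and Aglianico Campania replicates 1 and 2 had 20.9 and 59.3. Against Sicily alone its log2 difference was 3.00, and its pooled SD was 1.39. Cluster-27903.22874 (3.86) had 3164, 407 and 2934 in these Molise libraries. Since the choice required a difference in each variety, these values describe the members and give no test of a variety by site interaction.

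**Figure D3:**
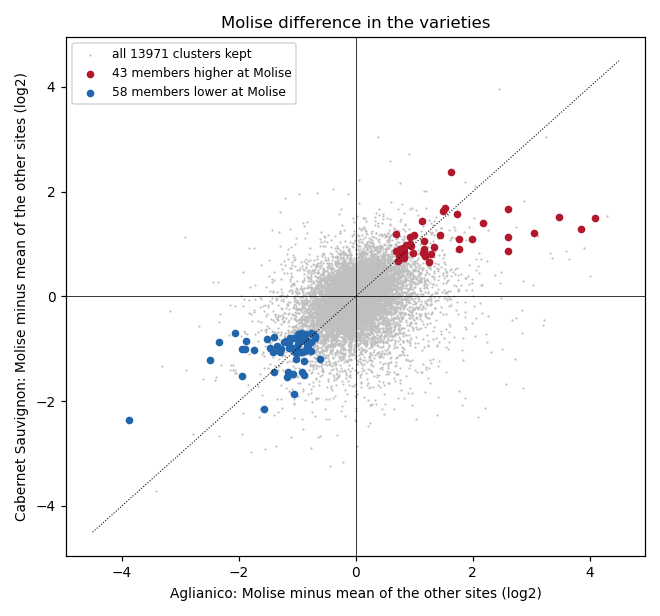
Log2 difference between Molise and the mean of the other sites in Aglianico (horizontal axis) and Cabernet Sauvignon (vertical axis) for the 13971 clusters kept (grey), the 43 members higher at Molise (red) and the 58 lower (blue); the dotted line marks equal differences. The higher members reach 4.09 in Aglianico and 2.37 in Cabernet Sauvignon.

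The members were a small share of what was set apart at Molise in a single variety. In Aglianico alone, 506 clusters met the criterion of being higher at Molise, and in Cabernet Sauvignon alone 420 did. The 43 shared clusters were 8.5% of the Aglianico list, while the Cabernet Sauvignon list held 3.01% of all kept clusters, and they were 10.2% of the Cabernet Sauvignon list, while the Aglianico list held 3.62% of all kept clusters. Of the 506 clusters higher in Aglianico, 9 met the criterion for being lower in Cabernet Sauvignon, beside 4.39% of all kept clusters. For clusters lower at Molise, 430 met the criterion in Aglianico and 614 in Cabernet Sauvignon. The 58 shared ones were 13.5% and 9.4% of these lists, beside 4.39% and 3.08% of all kept clusters in the opposite variety's list. Of the 430, 12 were higher in Cabernet Sauvignon, beside 3.01% of all kept clusters. The same criteria applied to Sicily gave 276 clusters set apart in both varieties, and applied to Campania 62. The lists were longer at Sicily. There 161 clusters were higher in both, 13.7% of the 1176 in Aglianico, beside 8.8% of all kept clusters in the Cabernet Sauvignon list. The 115 lower ones were 11.3% of 1019, beside 5.08%. Of the 1176, 38 were lower in Cabernet Sauvignon, beside 5.08%, and of the 1019, 106 were higher, beside 8.8%. At Campania, 37 clusters were higher in both, 8.6% of 432 beside 4.81%, and 25 lower, 5.1% of 491 beside 3.03%. Of the 432, 18 were lower in Cabernet Sauvignon, beside 3.03%, and of the 491, 53 were higher, beside 4.81%. Those 53 outnumbered the 25 that were lower in both. The varieties share no library, but all libraries were scaled together.

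Membership was sensitive to the cut-offs and to single libraries. The 2 higher members nearest the cut-off had a smaller difference of 0.604 and 0.609, and the nearest clusters outside it 0.598 and 0.598. For the lower members the values were 0.601 and 0.605 inside, and 0.596 and 0.594 outside. A further 28 higher and 42 lower clusters differed enough in both varieties, but by no more than Sicily and Campania differed from each other. When each of the 17 libraries was left out in turn, 7 of the 43 higher and 5 of the 58 lower clusters met the criteria every time. The Campania libraries of Aglianico had the most weight. Without replicate 1, 32 clusters were higher and 32 lower (24 and 28 of them members), and without replicate 2, 83 were higher and 128 lower (40 and 54 of them members). Of the named clusters, Cluster-27903.21392 and Cluster-27903.40624 were among the 7, while Cluster-27903.36470 met the criteria in 14 of the 17 and Cluster-27903.30187 in 15. Without the 2 doubted Cabernet Sauvignon Sicily libraries, 58 clusters were higher and 61 lower, with 39 and 46 members among them. With the library labelled Aglianico Campania replicate 3 included, 64 were higher and 74 lower, with 39 and 46 members among them.

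The medians by library show the pattern that the choice set. For the 43 higher clusters the median log2 deviation from the mean of the 17 libraries was 0.76, 0.75 and 1.05 in Aglianico Molise and 0.60, 0.70 and 0.61 in Cabernet Sauvignon Molise. In the other libraries used it lay between -0.72 and 0.07. The libraries nearest to Molise were Cabernet Sauvignon Sicily replicate 2, at 0.07, and Aglianico Campania replicate 2, at -0.10. The 58 lower clusters had medians of -0.61, -0.72 and -0.83 in Aglianico Molise and -0.68, -0.60 and -0.73 in Cabernet Sauvignon Molise. Elsewhere the medians lay between 0.03 and 0.72, and Aglianico Campania replicate 2 was lowest. The median over all kept clusters was 0 in each library.

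**Figure D4:**
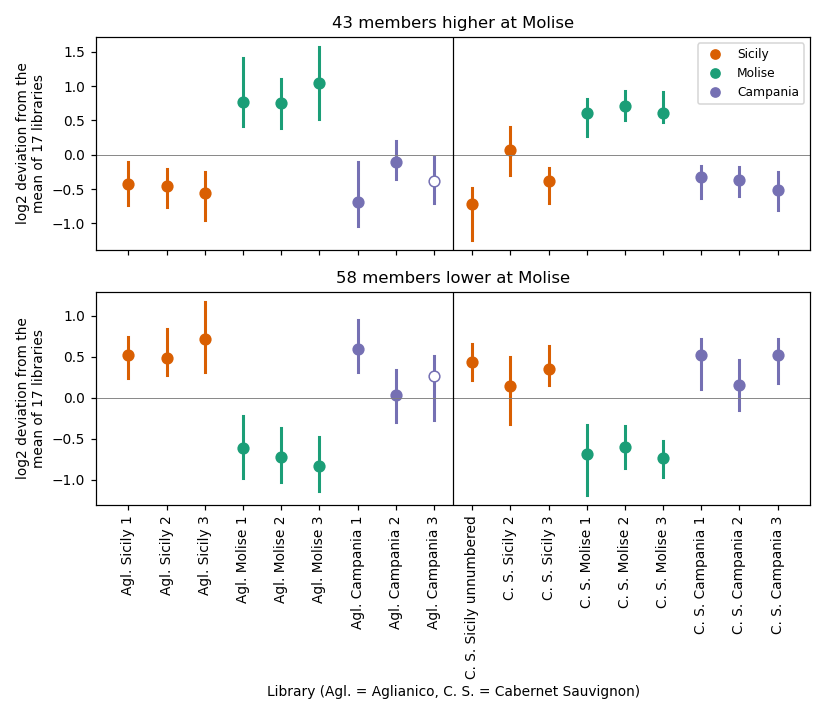
Median (point) and interquartile range (line) over the members of the log2 deviation from the mean of the 17 libraries, for each library; the upper panel shows the 43 higher and the lower panel the 58 lower members. The open circle is the library labelled Aglianico Campania replicate 3. Molise medians lie between 0.60 and 1.05 above and between -0.83 and -0.60 below.

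Not every member separated Molise from the other sites library by library. In Aglianico, all Molise libraries lay above all others for 34 of the 43 higher clusters, beside 7.09% of all kept clusters. In Cabernet Sauvignon this held for 29, beside 10.6%, and in both varieties for 21, beside 1.47%. Of the 58 lower clusters, 39 lay wholly below in Aglianico (6.37% of all kept clusters), 41 in Cabernet Sauvignon (9.81%) and 27 in both (1.15%). Because the same levels chose the members, nothing is read from these counts beyond the spread they show. Cabernet Sauvignon Sicily replicate 2 reached the Molise range of its variety for 11 higher and 9 lower clusters, and Aglianico Campania replicate 2 for 2 higher and 16 lower ones. Cabernet Sauvignon Campania replicates 2 and 3 reached it for 9 and 7 lower clusters, and for 1 higher cluster each. The matching shares over all kept clusters were not computed. Without the 2 doubted Cabernet Sauvignon Sicily libraries, 30 higher and 33 lower members did not overlap in either variety, beside 2.35% and 1.95% of all kept clusters.

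The edgeR quasi-likelihood test of Molise against the mean of the other sites, adjusted over 29738 clusters, called 35 of the 43 higher members higher in Aglianico and 30 in Cabernet Sauvignon, beside 7.25% and 7.76% of the 13971 kept clusters and 6.3% and 5.09% of all those tested. It called 32 of the 58 lower members lower in Aglianico and 26 in Cabernet Sauvignon, beside 4.77% and 6.65% of kept and 3.43% and 4.18% of tested clusters. In either direction, 9.72% of the tested clusters (12% of those kept) were called in Aglianico and 9.27% (14.4%) in Cabernet Sauvignon. No member was called against its direction. The choice used this contrast, so these counts carry no further weight. They rest on few libraries, as do the calls over all clusters. Those fell from 2892 to 1256 in Aglianico without its Molise replicate 3. In Cabernet Sauvignon they fell from 2757 to 875, 1150 and 908 without its Molise replicates 1, 2 and 3. Without the unnumbered Sicily library they fell to 1998. The falls among members below are thus not particular to the members. The 67 members called in Aglianico became 16 without Aglianico Campania replicate 1 and 35 without Aglianico Molise replicate 3. The 56 called in Cabernet Sauvignon became 19, 22 and 17 without its Molise replicates 1, 2 and 3, and 37 without the unnumbered Sicily library. Without the 2 doubted Cabernet Sauvignon Sicily libraries 46 were called in Cabernet Sauvignon and 72 in Aglianico, and with 18 libraries 49 and 65. Of all clusters called in Cabernet Sauvignon, 1515 were higher at Molise and 1242 lower, a share of 55.0% higher. The share was 71.5% under upper-quartile scaling, 48.0% by DESeq2 and 49.4% without the 2 doubted Sicily libraries, so which direction held the majority depended on the setting.

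The criteria kept a member's difference between Sicily and Campania below its own Molise difference and set no other limit on it. The median size of that log2 difference among the higher clusters was 0.31 in Aglianico and 0.32 in Cabernet Sauvignon, beside 0.36 and 0.33 over all kept clusters. Among the lower clusters it was 0.35 and 0.18. Single members had wider gaps, up to 2.19 in Aglianico and, for Cluster-27903.36470, 1.496 in Cabernet Sauvignon. In Aglianico, Sicily was above Campania for 45 of the 58 lower clusters and for 12 of the 43 higher ones, beside 6966 of 13971 kept clusters. For most members in this variety, Sicily was thus the site farthest from Molise. In Cabernet Sauvignon the counts were 23 of 58 and 28 of 43, beside 6753 of 13971. The Aglianico Campania mean rests on 2 libraries, 1 of which lay nearest to Molise.

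The library labelled Aglianico Campania replicate 3 gave the only levels that the choice did not use. For Cluster-27903.21392 it had 107 normalised counts and for Cluster-27903.40624 215, in each case below every Molise library of either variety. It had 1181 of Cluster-27903.36470 and 2019 of Cluster-27903.30187, above every Molise library. Over the 43 higher clusters it lay below the Aglianico Molise mean for 40, beside 50% of all kept clusters, and below every Aglianico Molise library for 37, beside 34.1%. Over the 58 lower clusters it lay above that mean for 45, beside 50%, and above every Aglianico Molise library for 43, beside 33.7%.

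Against Cabernet Sauvignon Molise, to whose variety its profile was closer, the same library lay below the mean for 42 of the 43 higher clusters (50.3% of all kept clusters) and below every library for 40 (38.6%). It lay above the mean for 52 of the 58 lower clusters (49.7%) and above every library for 51 (37.0%). Its median deviation was -0.39 over the higher and 0.27 over the lower clusters, within the range of the other Campania libraries. For 31 of the higher and 45 of the lower clusters it was nearer to the Cabernet Sauvignon than to the Aglianico Campania mean, 72.1% and 77.6%, beside 78.2% of all kept clusters. It is 1 library, so these counts have no test, and its site is also that of libraries the choice used. The Molise levels set against it are those that chose the members. That alone moves the counts away from the shares over all kept clusters, so nothing is read from the gap.

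The higher members took up more of the counts at Molise and the lower members less, which the choice of members largely set. They held 0.563% to 0.643% of all counts in the Aglianico Molise libraries and 0.152% to 0.285% in the other Aglianico libraries. In Cabernet Sauvignon they held 0.393% to 0.426% at Molise and 0.139% to 0.219% elsewhere. A single cluster made up much of this. The most abundant higher member had 52855, 74410 and 59057 normalised counts in Aglianico Molise and 30685, 28234 and 26273 in Cabernet Sauvignon Molise. At the other sites it had 15975 to 35154 in the Aglianico libraries used and 10358 to 19342 in Cabernet Sauvignon. Without it the other 42 higher members still summed to 73750 to 98289 normalised counts in Aglianico Molise, against 27161 to 41951 in the Aglianico libraries of the other sites. In Cabernet Sauvignon this sum was 56950 to 63608 at Molise and 25084 to 51096 elsewhere, highest in Sicily replicate 2. The lower members held 0.104% to 0.124% of counts in Aglianico Molise and 0.136% to 0.141% in Cabernet Sauvignon Molise, and 0.15% to 0.282% in the other libraries.

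The members had a lower median abundance and a larger median spread within groups than all kept clusters. The choice used these same levels, and whether it favoured clusters that vary was not tested. The geometric mean level over 17 libraries had a median of 181 normalised counts among the higher members (46.4 to 24400) and 282 among the lower ones (41.5 to 7720), beside 450.0 over all kept clusters. The pooled within-group SD of the log2 level had a median of 0.36 and 0.43, beside 0.25. It ranged up to 1.39 among the higher and 1.24 among the lower members. The 3 Molise libraries of Aglianico spanned a median of 0.84 log2 units for the higher and 0.68 for the lower clusters, and those of Cabernet Sauvignon 0.40 and 0.50. Every Molise library supplied the extreme value for some members. Among the higher clusters the top Molise library was replicate 1, 2 or 3 for 16, 15 and 12 clusters in Aglianico and for 14, 16 and 13 in Cabernet Sauvignon. Among the lower clusters the split was less even, with the lowest Molise library being replicate 1, 2 or 3 for 12, 24 and 22 clusters in Aglianico and for 26, 15 and 17 in Cabernet Sauvignon.

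The choice compared sites within a variety and left the level difference between the varieties free, so that difference was tested. In the fit of the 17 libraries, 27 of the 101 members differed between the varieties over the 3 sites (adjusted p under 0.05, edgeR), 9 of them higher and 18 lower in Cabernet Sauvignon. This share of 26.7% is below the 36.2% of all kept clusters that were called, of which 15.4% were higher and 20.9% lower in Cabernet Sauvignon. Of all 29738 clusters tested, 30.1% were called, 15.7% higher and 14.5% lower in Cabernet Sauvignon. The difference between these shares was not tested. Of the members higher at Molise, 11 of 43 (25.6%) were called, 3 higher and 8 lower in Cabernet Sauvignon, and of those lower at Molise 16 of 58 (27.6%), 6 higher and 10 lower. The median log2 fold change was -0.04 and -0.01, beside -0.05 over all kept clusters, and its median size was 0.36 and 0.34, beside 0.26. Calls over all clusters also changed with the libraries used. The 8960 became 7383 with 18 libraries and 9023 without Aglianico Molise replicate 2. Changes in the members called are thus not particular to the members. Leaving out single libraries gave 19 to 29 members called, with the lowest count without Aglianico Campania replicate 1. Without the 2 doubted Sicily libraries 21 members were called, and 24 with 18 libraries.

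Over all 17 libraries, the varieties overlapped for every member called different between them. Within each site, all Cabernet Sauvignon libraries lay above all Aglianico libraries at each of the 3 sites for 3 members, beside 3.74% of all kept clusters, and below them for 7, beside 4.19%. The fixed rule for naming clusters asked for no overlap over all 17 libraries and so named none here. The 4 clusters below were taken as the largest fold changes each way among those called, after their values were seen.

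Cluster-27903.33063, higher at Molise, was lower in Cabernet Sauvignon. Aglianico had 4333, 3948 and 5430.0 normalised counts at Molise, 2498, 2147 and 3065 at Sicily, and 4393 and 1914 at Campania. Cabernet Sauvignon had 1280.0, 2004 and 1877 at Molise, 880.0, 983 and 1019 at Sicily, and 941, 1073 and 995 at Campania. In the 17 libraries used, Cabernet Sauvignon was below Aglianico at every site without overlap. The log2 fold change was -1.54 ± 0.16 (SE, edgeR adjusted p = 8.13e-06). The library labelled Aglianico Campania replicate 3 had 922, below every Cabernet Sauvignon library at Campania. Counted by its label, it would make the varieties overlap there.

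Cluster-27903.28390, lower at Molise, also had less RNA in Cabernet Sauvignon. Its levels were 479 to 2419 normalised counts in the 8 Aglianico libraries used (median 1630.0) and 105 to 1240.0 in the 9 Cabernet Sauvignon libraries (median 655). At Molise the Aglianico libraries had 533, 479 and 1866, and the Cabernet Sauvignon libraries 105, 312 and 254. The varieties overlapped across sites and did not overlap at Molise or at Sicily. The library labelled Aglianico Campania replicate 3 had 500, below the Cabernet Sauvignon Campania libraries (863, 1240 and 876) and within the Aglianico Molise range. The log2 fold change was -1.54 ± 0.33 (SE, edgeR adjusted p = 0.00389).

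The remaining pair, both lower at Molise, lay farthest in the other direction. Cluster-27903.22057 had 28.0, 118 and 65.9 normalised counts in Aglianico Molise and 223, 238 and 131 in Cabernet Sauvignon Molise. At Sicily it had 162, 93.8 and 90.5 in Aglianico and 397, 373 and 363 in Cabernet Sauvignon, and at Campania 133 and 89.4 against 446, 293 and 240.0. Cabernet Sauvignon was higher at each site without overlap (log2 fold change 1.53 ± 0.25 SE, edgeR adjusted p = 0.000451), and the library labelled Aglianico Campania replicate 3 had 330.0. Cluster-27903.27971 ranged from 22.6 to 101 in Aglianico and from 78.7 to 238 in Cabernet Sauvignon, again without overlap at any site (1.22 ± 0.24 SE, edgeR adjusted p = 0.00181). In the library labelled Aglianico Campania replicate 3 it had 272, above every other library. All 4 calls held without any 1 of the 17 libraries.

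**Figure D5:**
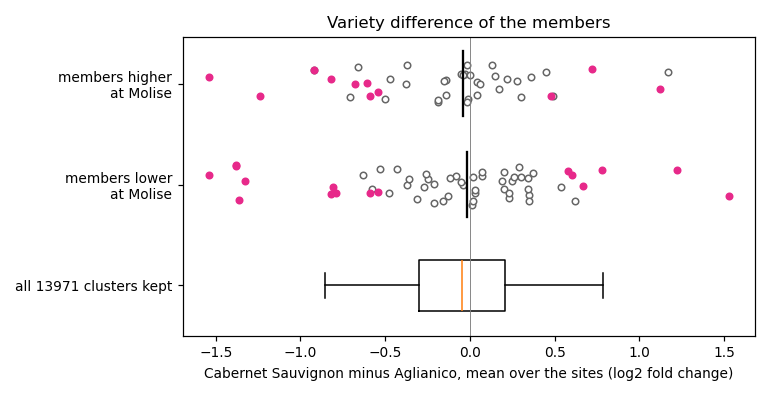
Log2 fold change between Cabernet Sauvignon and Aglianico, averaged over the sites, for the members higher and lower at Molise (points; filled where the edgeR adjusted p is under 0.05; bars mark medians) and for all 13971 kept clusters (box with median and quartiles, whiskers at the 5th and 95th percentiles). Members reach from -1.54 to 1.53, with medians of -0.04 and -0.01.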

How the data were processed

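The authors deposited unscaled expected counts of 97442 transcript clusters in 18 libraries; these are model estimates, and 5.6% to 7.78% of a library's values had decimals. CASAVA 1.8, RSEM and DESeq2 are listed, without roles, per the submitters' processing notes. Build, assembler and aligner: not given in the sources used here. Reads of related genes or alleles may be divided between clusters. Samples were grouped by title; 1 Cabernet Sauvignon Sicily column lacks a readable number and stands for its group alone, and 0 columns were left aside. Any pair of libraries differed by a chi-square of at least 21.7 per degree of freedom, so none was a copy of another.

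For the choice of members, expected counts of 17 libraries were divided by median-of-ratios size factors and averaged per group as log2 values (pandas 2.3.3). For tests, counts were rounded and fitted with edgeR 4.0.16 (R 4.3.3; filterByExpr, TMM, glmQLFit, glmQLFTest, robust) as 6 group means over 17 libraries, with Benjamini-Hochberg adjustment over 29738 clusters; standard errors were taken as the size of the log2 fold change over the root of F. Both steps were tested on simulated data. Alternatives included RLE and upper-quartile scaling, no filter, DESeq2 1.42.0, a replicate block and leaving out libraries. The members and tests were chosen with earlier results of these data known. The rule for named clusters allowed at most 2 each way per comparison. P-values measure the spread between these berry pools only.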

Additional observations from a re-analysis of the deposited data

How the results depend on the processing

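The counts of clusters set apart at Molise stayed within 1.5 times under TMM scaling, size factors from more clusters, a minimum of 10 or 50 counts, a pseudocount of 1, group medians, 18 libraries and without the 2 doubted Sicily libraries. The clusters themselves changed more. Group medians gave 56 higher and 65 lower, with 33 and 36 members among them. A minimum of 50 counts gave 31 and 40, with 31 and 37 members. Cluster-27903.36470, with 43 counts in Aglianico Molise replicate 3, could not enter there. With a log2 difference of at least 1, 11 were higher and 5 lower. Leaving out 1 library gave 32 to 83 higher and 32 to 128 lower. The 85 members on their own side of Molise in the unused library became 94 against the Cabernet Sauvignon mean, and stayed at 85 under TMM scaling. Of the edgeR counts, the 8960 calls between varieties became 5447 with no filter (4993 to 9023 without 1 library, the lowest without Aglianico Campania replicate 1 and 5723 without replicate 2; members 19 to 29). The 2892 calls for Molise in Aglianico became 917 with no filter (members 34), and 553 to 3636 without 1 library (553 and 1377 without Campania replicates 1 and 2 of that variety, 1256 without its Molise replicate 3; members 16 to 76). The 2757 in Cabernet Sauvignon became 757 with no filter (members 22), 4453 by DESeq2, 1650 without the 2 Sicily libraries, and 875 to 3702 without 1 library (875, 1150 and 908 without its Molise replicates 1, 2 and 3, 1652 and 1665 without Aglianico Campania replicates 1 and 2, 1837 without its Campania replicate 3; members 17 to 75). Where Aglianico Campania was left with 1 library, or Sicily with 1, that library is assumed to vary like the other groups, and the filter then let more clusters be tested. The cause of the other shifts was not tested. Same-numbered libraries of different groups correlated between -0.28 and 0.38 in their deviations (median 0.08). Differently numbered ones correlated between -0.46 and 0.44 (median -0.04). These ranges overlap and cannot settle whether the numbers pair libraries. With a replicate block (16 libraries) 8577, 2935 and 2069 clusters were called in these comparisons, with 29, 66 and 43 members. No named cluster changed direction, but the balance of calls did. The 4661 higher and 4299 lower calls between varieties became 3669 and 3714 with 18 libraries (7383 in all) and 2341 and 2652 without Aglianico Campania replicate 1. For Molise in Cabernet Sauvignon, 1515 higher and 1242 lower became 2138 and 2315 by DESeq2 and 815 and 835 without the 2 Sicily libraries. Without those libraries 7109 clusters were called between varieties. Members near 20 counts carry the larger counting error.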

Other observations

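The within-group deviations of the members, which the choice did not set, were compared between pairs of members. The median correlation of these deviations over the 17 libraries was 0.23 across the 903 pairs of members higher at Molise and 0.20 across the 1653 pairs of members lower there. The pairs share libraries and scaling, so these values are a description. No value over all kept clusters was computed, so they cannot be called weak or strong. The medians also hide members that moved together. In Aglianico Molise replicates 1, 2 and 3, Cluster-27903.26522 had 10039, 2458 and 6909 normalised counts, and Cluster-27903.22874 had 3164, 407 and 2934. This pair was picked after the values were seen. Of the 101 members, 12 met the criteria under each of the 17 omissions, and none met them in fewer than 10.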
